A study of Mus musculus with 9 samples.

Results

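Genes with a symbol of the form Gpr plus a number were described in bone marrow stromal cells after granulocyte colony-stimulating factor (G-CSF) or saline. Of 70 Gpr probe sets that the platform table pairs with a single symbol, 36 had a mean log2 intensity of at least 5 over all 9 arrays. These 36 probe sets, for 35 genes, are the members described here, of 21789 probe sets with 1 symbol in all. The choice of members used their mean over all arrays and not the difference between the treatments, but the fall of Gpr50 was known from these data when the family was chosen, so its difference and p-value describe these arrays and are not independent support. Gpr symbols were given to proteins that resembled G protein-coupled receptors before a ligand was known. The members therefore hold true orphan receptors, receptors whose ligands were found later and membrane proteins that are not classical receptors. They are called Gpr genes below for that reason.

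G protein-coupled receptors are membrane proteins that pass signals from hormones, lipids, peptides, nucleotides or protons to G proteins inside the cell. The alpha subunit of the G protein then raises or lowers cyclic AMP or opens other routes, RGS proteins shorten the signal, and receptor kinases with arrestins switch the receptor off. CXCL12-abundant reticular (CAR) cells are marrow stromal cells that make the chemokine Cxcl12 and support blood stem cells and B cell precursors.

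All mice were of genotype Cxcl12+/gfp, in which 1 Cxcl12 allele carries green fluorescent protein, and the cells studied were the lineage-negative cells brightest for that protein, so the sort itself depends on Cxcl12 activity. The PBS group (4 arrays) received phosphate-buffered saline for 5 days. The G-CSF group (5 arrays) received 250 µg/kg per day, and the treatment ran for 5 days. The titles call the arrays biological replicates without naming animals or pools, and the sources used here give neither the age nor the sex of the mice. P-values cover only the variation from array to array, which may be technical. The source names speak of pre-B colonies, and those of 4 G-CSF arrays of an Hspa9 genotype, against the titles, treatments and protocols; groups follow the titles.

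The deposited RMA intensities were put on the log2 scale, and every level below is a log2 RMA intensity. A difference is the G-CSF mean less the PBS mean on that scale, so that 1 means 2-fold. The defining transcripts of CAR cells were bright, with Cxcl12 at 12.35 ± 0.11 (SD, n = 4) in PBS and 11.99 ± 0.07 (n = 5) in G-CSF, and Lepr at 11.55 ± 0.21 and 11.33 ± 0.26. The first principal component (34.9% of the variance) split the arrays into set 1 (PBS replicates 1 and 2, G-CSF replicates 1 to 3) and set 2 (the other 4 arrays). PBS replicate 3 stood farthest out on it, at 56.51 against 22.51 for the next array. The labels name no batch, so values within each set and with the set as a block are given where they change a result. The sets were read from the same values that were tested. P-values with the set as a block may therefore be too small, and passing under it is not independent support.

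The promoter windows of 2 members, Gpr50 and Gpr84, are shown from RefSeq, assembly GRCm38.p6, each from 250 bases before to 50 bases after the annotated gene start. The table held a window for 28 of the 35 member genes. These promoters are printed because only these members had intervals that reached 2-fold. Capitals mark matches on either strand to the GC box GGGCGG and the CCAAT box CCAAT.
Gpr50 (gene ID 14765), chrX:71663417-71663716, plus strand: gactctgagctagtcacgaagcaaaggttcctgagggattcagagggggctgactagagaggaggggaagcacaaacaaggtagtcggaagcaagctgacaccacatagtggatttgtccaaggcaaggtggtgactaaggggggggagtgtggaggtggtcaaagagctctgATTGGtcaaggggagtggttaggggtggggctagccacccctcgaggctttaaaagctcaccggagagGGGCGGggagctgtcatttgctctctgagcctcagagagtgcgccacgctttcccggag
Gpr84 (gene ID 80910), chr15:103310389-103310688, minus strand: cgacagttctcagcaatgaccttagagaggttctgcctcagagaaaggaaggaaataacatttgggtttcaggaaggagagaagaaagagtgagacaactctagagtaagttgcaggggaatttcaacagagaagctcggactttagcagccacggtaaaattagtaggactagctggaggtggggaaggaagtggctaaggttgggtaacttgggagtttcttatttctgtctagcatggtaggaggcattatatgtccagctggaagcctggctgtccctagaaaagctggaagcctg
The Gpr50 window held 1 GC box, starting at position -9 from the gene start, and 1 CCAAT box on the reverse strand (ATTGG), at position -77. The Gpr84 window held neither. Over all 32851 windows of this length in the table, 35.7% held a GC box and 37.4% a CCAAT box. Neither window held TATAAA (13.6% of all windows), the STAT-type element TTCNNNGAA (8.3%), the E-box CACGTG (7.15%) or the palindromic site of EBF factors (0.904%), searched on both strands. The 28 member genes had 39 windows, as a gene can have several starts. Of these windows 17 (43.6%) held a GC box and 17 (43.6%) a CCAAT box. These are letter matches only, chosen as motifs after the values were seen.

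Of the 36 Gpr members, 1 passed the test after G-CSF: Gpr50 fell, with PBS 5.24-fold above G-CSF in measured RMA values. On the G-CSF arrays 4 of 5 values lay below 5.50, a level near background taken from olfactory and vomeronasal receptors as described further on. With those arrays raised to that level, PBS was 3.77-fold higher, an estimate and not a lower bound. The 95% interval of the measured fold ran from 2.82 to 9.74. Gpr50 is an X-linked relative of the melatonin receptors that does not bind melatonin and is best known from the hypothalamus and pituitary. The PBS arrays read 7.43, 6.90, 7.11 and 8.71, and the G-CSF arrays 4.00, 5.20, 5.21, 5.22 and 6.12 (replicates in order). The lowest PBS array therefore lay above the highest G-CSF array. The means were 7.54 ± 0.81 (SD, n = 4) and 5.15 ± 0.75 (SD, n = 5), a difference of -2.39 (SE 0.41, 95% interval -3.28 to -1.49; limma adjusted p = 0.0109 over all 21789 probe sets). PBS replicate 4 was the highest array and G-CSF replicate 1 the lowest, and these SDs were the widest of any member in either group. In bulk RNA, fewer cells that express a gene and less RNA per cell cannot be told apart.

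The Gpr50 call was kept in all 9 fits that left out 1 array, with differences of -2.63 to -2.00 and adjusted p of 0.00707 to 0.0355. The fall was 2.37 in set 1 (adjusted p = 0.0330) and 2.24 in set 2, where 2 arrays stood against 2 and the call was lost (adjusted p = 0.231; in set 2 alone 0.271% of all probe sets passed, in set 1 alone 0.927%). It was also lost when all 35553 probe sets were tested, which adds 12143 with no symbol and 1621 with several (adjusted p = 0.0610). Without PBS replicate 3, the array that stood apart, the difference was -2.53 (adjusted p = 0.0221).

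**Figure D1:**
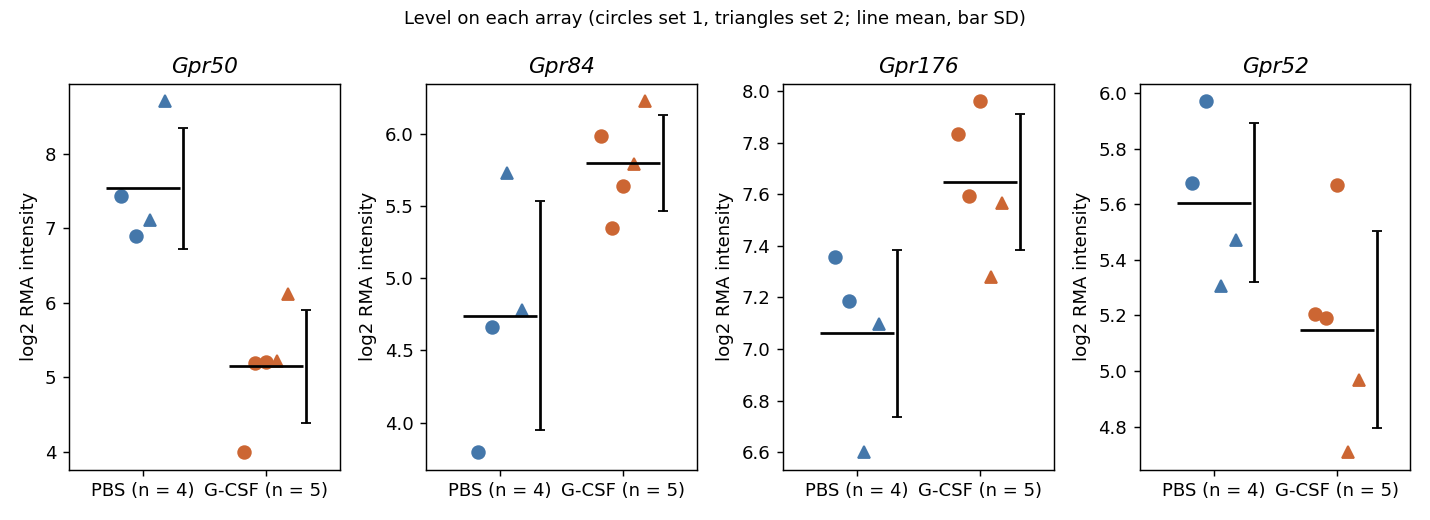
Log2 RMA intensity of Gpr50, Gpr84, Gpr176 and Gpr52 on each array, PBS (n = 4, blue) beside G-CSF (n = 5, orange), with circles for set 1, triangles for set 2, a line at the mean and a bar for the SD. For Gpr50 the lowest PBS array (6.90) is above the highest G-CSF array (6.12), while for the other genes the groups overlap. Axes start at different values in each panel.

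The melatonin receptors themselves were dim. Mtnr1a had means of 2.82 ± 0.12 (PBS) and 2.87 ± 0.26 (G-CSF) (adjusted p = 0.983), and Mtnr1b at 4.43 ± 0.20 and 4.39 ± 0.35 (adjusted p = 0.993). The protein-coding genes nearest to Gpr50 on the X chromosome in the RefSeq order, 3 on each side with a probe set, were examined after the values were seen. They are Hmgb3, Cd99l2 and Mtmr1 on one side and Vma21, Prrg3 and Cnga2 on the other. Hmgb3, a chromatin protein, differed by -0.10 (adjusted p = 0.967) and Vma21, an assembly factor of the proton pump, by -0.20 (adjusted p = 0.972). The 6 differences ran from -0.20 to 0.00, and none passed. Mtmr1, Prrg3 and Cnga2 were dim, with means of 4.87, 4.34 and 2.96 over all arrays, where a change could be missed.

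Among all 36 members, 1 fell, 0 rose and 35 did not pass in limma, a share of 2.78% called, where 1.62% of all 21789 probe sets were called (0.877% fell and 0.743% rose). With the comparison restricted to the 12788 probe sets of mean 5 or more, the background was 2.51%. At an unadjusted p under 0.05 stood 4 members (Gpr50, Gpr84, Gpr176 and Gpr52), or 11.1%, where 9.22% of all probe sets did. Groups did not overlap for 1 member (2.78%), which was lower after G-CSF, against 4.65% of all probe sets (2.46% lower and 2.18% higher) and 6.68% of those of mean 5 or more. These shares rest on a few members and lie near the background. The median difference of the members was -0.04 and that of all probe sets 0.01; 19 members were lower and 17 higher after G-CSF.

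Apart from Gpr50, differences ran from -0.46 (Gpr52) to 1.06 (Gpr84), and 24 of the 36 members lay within 0.2 of 0. For 34 members the 95% interval, taken singly, lay within 2-fold in both directions; it reached 2-fold for Gpr50 and Gpr84 alone. The median half-width of these intervals was 0.38, so changes smaller than that were hard to resolve with this number of arrays. The intervals are not adjusted for the number of tests. Larger differences also missed the adjusted threshold, such as that of Gpr84 at 1.06. A difference that misses the threshold does not show that the levels were equal.

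**Figure D2:**
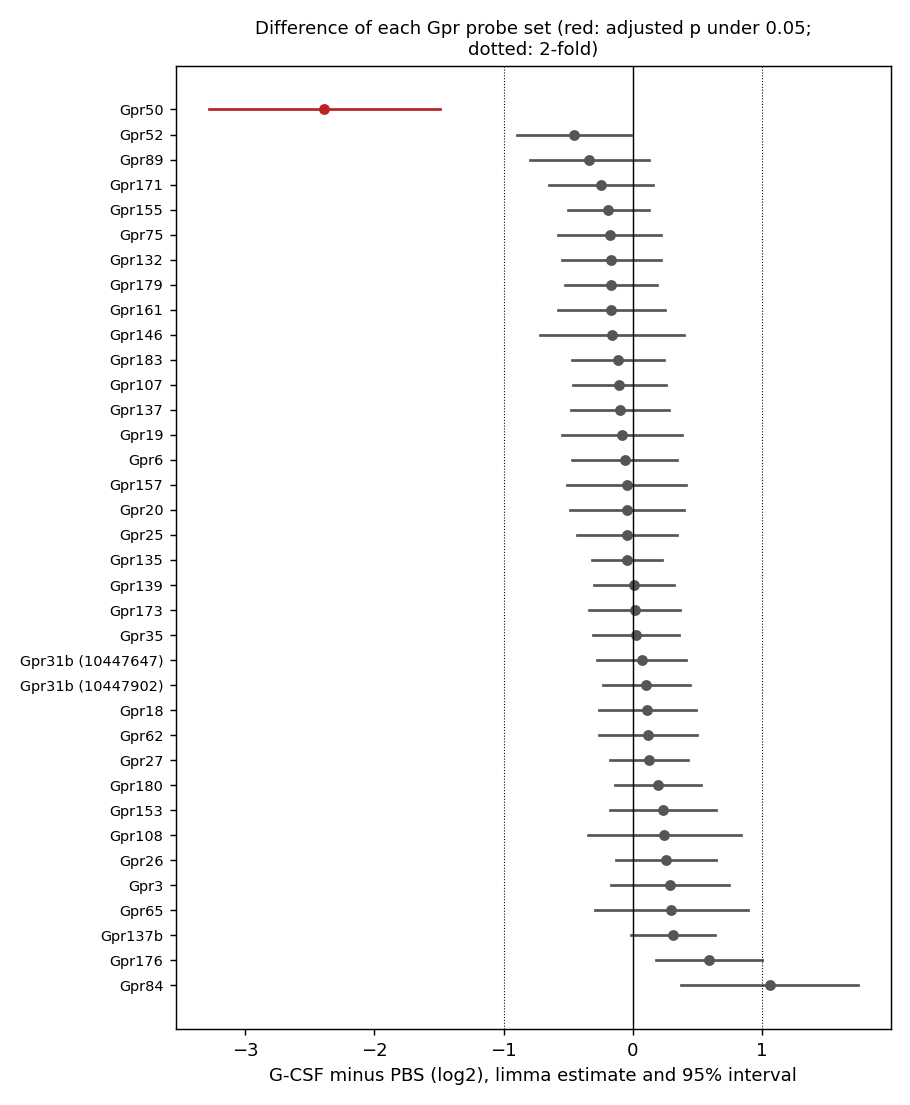
Difference of each of the 36 Gpr probe sets, G-CSF mean less PBS mean in log2 units, as the limma estimate with its 95% interval; red marks an adjusted p under 0.05 and dotted lines mark 2-fold. Gpr50 (-2.39) lies apart from the others, which run from -0.46 for Gpr52 to 1.06 for Gpr84.

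The receptors for lipids and metabolites, 6 probe sets for 5 genes, gave no call in limma (1 had an unadjusted p under 0.05), with a median difference of 0.09. Gpr84, a receptor for medium-chain fatty acids known from neutrophils and macrophages, had the largest positive difference of all members. It reached the minimum mean of 5 only through the G-CSF arrays, so the choice of members favoured this rise: its PBS mean was 4.74 ± 0.79 (n = 4) and its G-CSF mean 5.80 ± 0.33 (n = 5). The same holds for Gpr26 and Gpr65, while Gpr155 reached it only through the PBS arrays. Gpr84 read 3.80, 4.66, 5.73 and 4.78 on the PBS arrays and 5.99, 5.35, 5.64, 5.79 and 6.23 on the G-CSF arrays. PBS replicate 3 lay among the G-CSF arrays, and the other PBS arrays lay below them all. The difference was 1.06 (SE 0.31, 95% interval 0.37 to 1.74, adjusted p = 0.167). Without PBS replicate 3 it was 1.39 and passed (adjusted p = 0.0226, with 1.46% of all probe sets passing), and with the array set as a block it was 1.12 and passed (adjusted p = 0.0375). With array weights it passed as well (1.29, adjusted p = 0.0274, against 2.04% of all probe sets). Of the 9 fits that left out 1 array, only the 1 without PBS replicate 3 gave a call. It did not pass with the replicate number as a block (0.95, adjusted p = 0.347). Nor did it pass after further quantile normalisation (0.99, adjusted p = 0.204). Within the sets it was 1.43 (set 1) and 0.76 (set 2), with no call in either.

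The neutrophil marker list had higher values after G-CSF without a call in the main fit. The mean of 12 neutrophil genes ran from 7.97 to 9.24 in PBS and from 8.68 to 9.49 in G-CSF, with a median difference of 0.92. Of the 12, 0 passed in limma and 8 had an unadjusted p under 0.05, all of them higher, where 9.22% of all probe sets had such a p in either direction. With the set as a block 2 passed in limma, Mmp8 (adjusted p = 0.0157) and Cxcr2 (adjusted p = 0.00897), where 2.74% of all probe sets passed. None had a mean under 5. PBS replicate 1 had the lowest marker mean of all 9 arrays, at 7.97, and the lowest Gpr84, at 3.80. G-CSF replicate 2 was the lowest G-CSF array on both, at 8.68 and 5.35. PBS replicate 2 was the PBS array richest in these markers, at 9.24, and its Gpr84 level of 4.66 was below every G-CSF array. PBS replicate 3 had the highest Gpr84 of the PBS arrays, at a neutrophil mean of 8.33. The part of such cells in the Gpr84 difference was not tested.

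**Figure D3:**
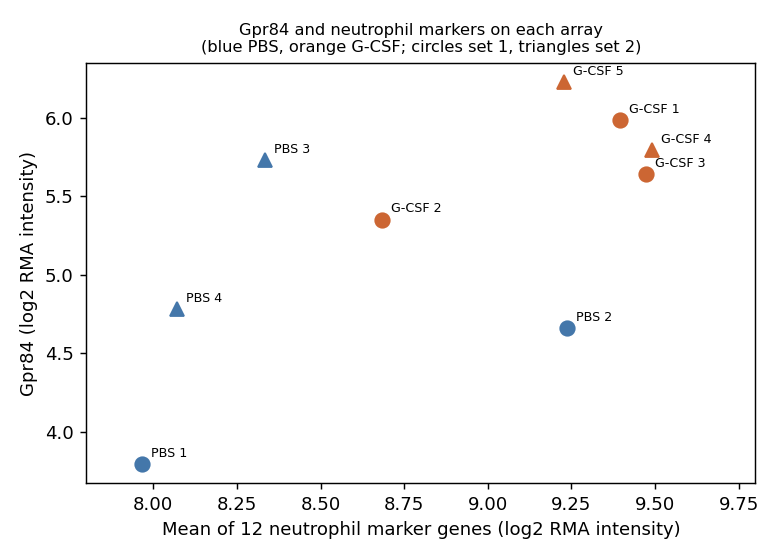
Gpr84 level on each array (y axis) against the mean of 12 neutrophil marker genes (x axis), both as log2 RMA intensity, with PBS in blue and G-CSF in orange, circles for set 1 and triangles for set 2. The G-CSF arrays span 5.35 to 6.23 for Gpr84, and 4 of the 5 lie at the upper right. PBS replicate 1 is the lowest array on both axes (7.97 and 3.80). PBS replicate 2 is high for the markers (9.24) and low for Gpr84 (4.66).

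Gpr18, a receptor of lymphocytes reported to respond to lipid mediators, averaged 7.20 ± 0.35 (PBS) and 7.31 ± 0.14 (G-CSF) (difference 0.11, adjusted p = 0.962). Its difference was 0.31 in set 1 and -0.10 in set 2. Gpr183, the oxysterol receptor that guides B cells and dendritic cells and lies beside Gpr18 in the genome, was at 5.55 ± 0.32 and 5.43 ± 0.12 (difference -0.12, adjusted p = 0.954). Gpr35, a receptor of gut and immune cells reported to sense tryptophan metabolites, differed by 0.02. The 2 probe sets of Gpr31b, a receptor reported for a fatty acid product of lipoxygenase, differed by 0.07 and 0.10. They read within 0.09 of each other on every array, so they are not independent measurements.

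The receptors that sense protons were Gpr65 and Gpr132, both known from white blood cells, and neither passed. Gpr65 read 5.04, 5.28, 5.03 and 4.39 in PBS and 4.54, 4.85, 5.24, 5.86 and 5.66 in G-CSF. Its 2 highest arrays were the G-CSF arrays of set 2, and its difference was -0.28 in set 1 and 1.05 in set 2. The treatment by set interaction had an unadjusted p of 0.00449 and an adjusted p of 0.864 in limma. No probe set passed that test (0 of 21789, with 1234 at an unadjusted p under 0.05, or 5.66%). Gpr132 differed by -0.17 (adjusted p = 0.913).

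Of the 16 class A orphan receptors, 0 passed in limma and 2 had an unadjusted p under 0.05, with a median difference of -0.05. Gpr176, an orphan receptor known from the circadian clock of the brain, read 7.36, 7.19, 6.60 and 7.10 in PBS and 7.84, 7.59, 7.96, 7.28 and 7.57 in G-CSF. Only G-CSF replicate 4 reached below the highest PBS array. The difference was 0.59 (SE 0.19, adjusted p = 0.225), and 0.53 in set 1 and 0.57 in set 2. It did not pass with the set as a block (adjusted p = 0.0824) or in any of the 9 fits that left out 1 array.

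Gpr52, a receptor of the striatum that raises cyclic AMP, read 5.68, 5.97, 5.31 and 5.47 in PBS and 5.20, 5.19, 5.67, 4.71 and 4.97 in G-CSF. G-CSF replicate 3 lay among the PBS arrays and the others below them. The difference was -0.46 (SE 0.20, adjusted p = 0.511). Gpr171, found in lymphocytes, differed by -0.25 (adjusted p = 0.829), from 7.19 ± 0.34 to 6.94 ± 0.23. Gpr153, an orphan receptor with few known functions, was among the 5 brightest members and differed by 0.23 (adjusted p = 0.863).

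The remaining class A orphans all lay between -0.18 (Gpr75) and 0.26 (Gpr26, a brain receptor). Gpr161, a receptor of the primary cilium that restrains Hedgehog signalling, averaged 5.90 ± 0.20 (PBS) and 5.73 ± 0.35 (G-CSF) (difference -0.17, adjusted p = 0.929). Gpr146, which has been linked to blood cholesterol, differed by -0.16 (adjusted p = 0.963) and by 0.16 in set 1 and -0.62 in set 2. Gpr135 had the tightest PBS arrays of the members, with an SD of 0.01 around 5.36, and differed by -0.04. Gpr27 and Gpr173, brain-enriched relatives of one another, differed by 0.12 and 0.01. Gpr19 differed by -0.09 and by 0.16 in set 1 and -0.30 in set 2. Gpr62 (0.12), Gpr157 (-0.05), Gpr20 (-0.05) and Gpr139 (0.01), the last a brain receptor for aromatic amino acids, complete the group.

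The members outside the classical receptor classes numbered 7, and 0 passed in limma (0 at an unadjusted p under 0.05), with a median difference of -0.10. Gpr108 and Gpr107 are related proteins of the Golgi membrane. Gpr108 had the highest mean of the 36 members, 7.83, and read 8.05, 8.20, 6.84 and 7.69 in PBS and 8.11, 7.99, 8.38, 7.41 and 7.81 in G-CSF. The low array was PBS replicate 3, and the difference of 0.24 (adjusted p = 0.927) was -0.04 without it. Gpr107 differed by -0.10. Gpr89, a Golgi anion channel that regulates pH, was at 6.14 ± 0.47 and 5.80 ± 0.21 (difference -0.34, adjusted p = 0.768). Gpr137b and Gpr137, lysosomal membrane proteins, differed by 0.31 (adjusted p = 0.582) and -0.10. Gpr155, a lysosomal sensor of cholesterol, differed by -0.19 and Gpr180 by 0.20.

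Gpr3 and Gpr6, receptors that raise cyclic AMP without a ligand, differed by 0.29 (adjusted p = 0.823) and -0.06 (adjusted p = 0.981). For Gpr6 the sign turned without PBS replicate 3 (0.07). Gpr179, a class C protein of retinal bipolar cells, differed by -0.17, and Gpr25, a receptor of lymphocytes, by -0.04. The 7 members on the list of genes known from leukocytes (Gpr18, Gpr171, Gpr35, Gpr183, Gpr132, Gpr84 and Gpr65) gave 0 calls in limma, 1 unadjusted p under 0.05 and a median difference of 0.02. Gpr25 was not on that list.

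**Figure D4:**
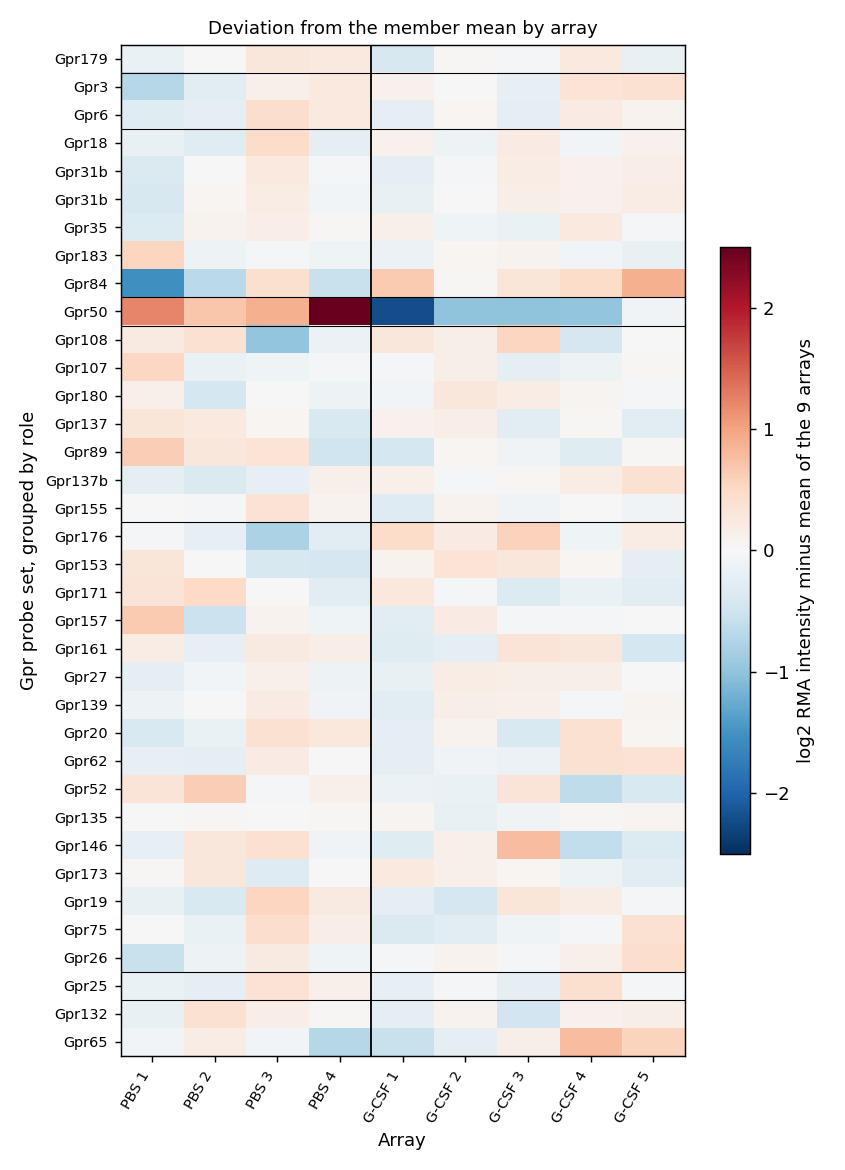
Log2 RMA intensity of each of the 36 Gpr probe sets on each array minus its mean over the 9 arrays (red above, blue below), grouped by role with lines between groups; the vertical line parts the 4 PBS arrays from the 5 G-CSF arrays. Gpr50 is the 1 row whose PBS arrays all stand above all its G-CSF arrays, and PBS replicate 1 is the lowest array for Gpr84.

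Most members were dim among the probe sets that met the same minimum. Their means ran from 5.06 (Gpr155) to 7.83 (Gpr108), with a median of 5.51, and 29 of the 36 lay below 6.50, the median of all 12788 probe sets with a mean of at least 5. Of the 36, 18 lay under 5.5, and 10 reached 6. The brightest after Gpr108 were Gpr176 (7.39), Gpr18 (7.26), Gpr153 (7.16) and Gpr171 (7.05). Probe sets differ in how well they bind, so these values do not order the genes by transcript number.

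RMA values carry no detection call, so olfactory and vomeronasal receptors, which are expressed in the nose, were taken as a reference after the values were seen. Their 1205 probe sets had a median of 3.08, a 95th percentile of 4.73 and a 99th percentile of 5.50. All 36 members lay above the 95th percentile, which the minimum of 5 ensures, and 18 lay above the 99th. Among the 18 that did not were Gpr84, Gpr183, Gpr65, Gpr52, Gpr3, Gpr6, Gpr137b and Gpr155. Gpr50 averaged 7.54 in PBS, above that level, and 5.15 in G-CSF, below it.

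**Figure D5:**
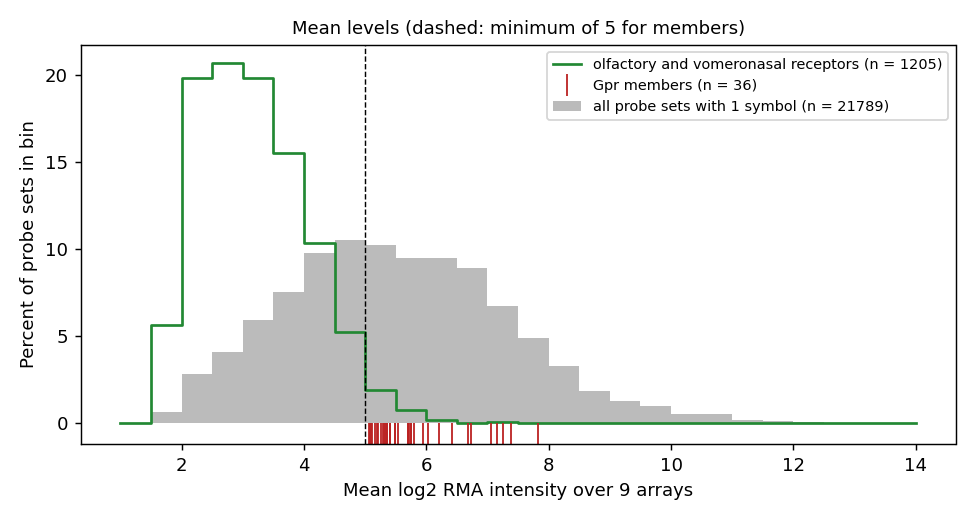
Mean log2 RMA intensity over the 9 arrays (x axis) as the percent of probe sets per bin of 0.5 for all 21789 probe sets with 1 symbol (grey) and for 1205 olfactory and vomeronasal receptor probe sets (green), with a red tick for each of the 36 Gpr members and a dashed line at the minimum of 5. Of the 36 members, 18 sit between 5 and 5.5, where the upper tail of the olfactory and vomeronasal receptors also reaches.

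Just inside the minimum stood Gpr155 (5.06), Gpr6 (5.08) and Gpr65 (5.10), and just outside it Gpr4 (4.95), Gpr182 (4.80) and Gpr152 (4.66). Gpr4 is a proton sensor of the endothelium, Gpr182 a scavenging chemokine receptor of the endothelium and Gpr152 an orphan receptor. Gpr182 read 5.10 ± 0.40 in PBS and 4.56 ± 0.31 in G-CSF (difference -0.54). The 34 Gpr probe sets below the minimum had means of 2.90 to 4.95.

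Arrays differed in ways that touch many members. The median level of the 36 members ran from 5.36 (PBS replicate 1) to 5.80 (PBS replicate 3), with the G-CSF arrays from 5.48 to 5.78. PBS replicate 3 was the highest PBS array for 18 members, against 37.7% of all probe sets, and 23 members were higher in set 2 than in set 1, against 62.1% of all probe sets. Differences had the same sign in both sets for 24 of the 36 members, against 54.8% of all probe sets. With the set as a block, 2 members passed, Gpr50 (-2.31, adjusted p = 0.0035) and Gpr84, where 2.74% of all probe sets passed.

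The wider G protein pathway was read from 11 lists with 137 measured genes, taking the brightest probe set of a gene, and 1.71% of all 19938 genes were called on that basis. The RGS list held all 3 calls, with 3 of 20 genes risen and 0 fallen. Rgs16 rose from 8.26 ± 0.80 to 10.47 ± 0.17, a difference of 2.21 (adjusted p = 0.00222). Rgs20 rose from 4.52 ± 0.30 to 6.27 ± 0.60, a difference of 1.75 (SE 0.28, adjusted p = 0.00644), and Rgs4 by 1.30 (adjusted p = 0.0213). Rgs16 and Rgs20 passed in all 9 fits without 1 array and Rgs4 in 4 of them; Rgs4 is also a pericyte gene. All of them act on the alpha subunits of the Gi class, and Rgs4 and Rgs16 on those of the Gq class as well. The median difference of the RGS list was 0.09, and 11 of its 20 genes had a mean under 5.

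The other lists gave 0 calls in limma. Of 15 alpha subunits, 3 had an unadjusted p under 0.05, where 9.22% of all probe sets did. Gnai1, a Gi alpha subunit, averaged 9.07 ± 0.69 (PBS) and 7.94 ± 0.59 (G-CSF) (difference -1.13, adjusted p = 0.178), a difference that passed when the array sets were blocked (adjusted p = 0.00328). Gnao1, the Go alpha subunit, differed by -0.44 (adjusted p = 0.259). Of 17 beta and gamma subunits, 1 had an unadjusted p under 0.05, with Gnb4 at 0.59 (adjusted p = 0.458) and Gngt2 at -0.78 (adjusted p = 0.559). Of 10 adenylyl cyclases, which make cyclic AMP, 2 had an unadjusted p under 0.05, Adcy9 at -0.68 (adjusted p = 0.111) and Adcy2 at -0.37 (adjusted p = 0.400). Of 15 phosphodiesterases, which break cyclic nucleotides down, 1 did, Pde1a at -0.73 (adjusted p = 0.127, or 0.0315 blocked by set), and Pde7b was at -0.26.

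Receptor kinases and arrestins numbered 9, of which 2 had an unadjusted p under 0.05, where 9.22% of all probe sets did. Arrb2, beta-arrestin 2, averaged 6.60 ± 0.21 (PBS) and 7.20 ± 0.10 (G-CSF) without overlap (difference 0.60, adjusted p = 0.0601, or 0.0338 blocked by set). Grk4, a receptor kinase, was dim and differed by -0.57 (adjusted p = 0.0945, or 0.0223 blocked by set).

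Among the other receptors on these lists, 51 were measured and 0 passed in limma, and none differed by as much as Gpr50: the range was -0.74 (Lpar6) to 0.83 (Adgre5). Of 10 lysophospholipid receptors, 3 had an unadjusted p under 0.05, where 9.22% of all probe sets did. Lpar6, a receptor for lysophosphatidic acid, differed by -0.74 (adjusted p = 0.0510, or 0.0324 blocked by set), and S1pr3, a receptor for sphingosine-1-phosphate, by 0.76 (adjusted p = 0.0775). Of 28 adhesion receptors under their current names, 15 had a mean under 5. An unadjusted p under 0.05 was reached by 9, against the same 9.22%. Among them were Adgre5, also called CD97 and abundant on leukocytes (0.83, adjusted p = 0.112, or 0.0033 blocked by set), and Adgrg1, once called Gpr56 (-0.50, adjusted p = 0.135). Of 9 prostaglandin receptors 1 had such a p, Ptgir, the prostacyclin receptor (0.52, adjusted p = 0.135), while Tbxa2r was at -0.25. Of 9 adrenergic receptors listed, the 2 analysed here, Adra1b and Adra2c, differed by 0.26 and 0.19 (adjusted p = 0.895 and 0.894). Both had a mean under 5. Neither of them nor either melatonin receptor had an unadjusted p under 0.05. The median difference of each list without a call lay between -0.06 and 0.22, against 0.01 for all probe sets. With the set as a block, 10 of the 137 genes passed, where 2.74% of all probe sets passed. They were Gnai1, Arrb2, Grk4, Pde1a, Rgs4, Rgs16, Rgs20, Adgre5, Adgrl2 and Lpar6.

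Markers of other cells shifted as well, and their part in the Gpr values was not tested. Of 10 stromal identity genes, 5 fell (Kitl, Ebf3, Adipoq, Vcam1 and Il7), and their mean went from between 10.42 and 10.68 in PBS to between 9.83 and 9.85 in G-CSF. The mean of 10 B lineage genes ran from 5.58 to 5.87 in PBS and from 4.95 to 5.34 in G-CSF; 3 fell (Cd79a, Ebf1 and Cd74), Ebf1 being also a stromal gene, and 4 had a mean under 5. For 7 erythroid genes the ranges were 4.91 to 6.01 and 4.29 to 4.52, with 3 fallen and 2 under 5. For 12 monocyte and macrophage genes they were 5.87 to 6.45 and 5.69 to 5.88, with Vcam1, a stromal gene too, the only call and 2 under 5.

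Markers of T and NK cells, the other lymphocytes that express Gpr18 and Gpr171, were low, with means of 3.64 to 4.15 in PBS and 3.95 to 4.09 in G-CSF; 7 of 9 were under 5, and 0 passed in limma (0 at an unadjusted p under 0.05). Of 9 endothelial genes, 6 were under 5 and 0 passed (2 at an unadjusted p under 0.05), with ranges of 4.73 to 5.05 and 4.72 to 5.00. The 6 megakaryocyte and platelet genes gave 0 calls (0 at an unadjusted p under 0.05) and ranges of 4.90 to 6.38 and 4.63 to 6.69. Of 8 smooth muscle and pericyte genes, 1 rose (Acta2), at ranges of 5.30 to 5.56 and 5.83 to 6.09, and 2 were under 5. Of 6 osteoblast genes, Col1a1 rose and Phex fell, with ranges of 7.62 to 7.86 and 7.16 to 7.45, and 1 was under 5. With the set as a block, the calls numbered 6 for stromal identity, 2 for monocytes and macrophages, 2 for smooth muscle and pericytes and 1 for endothelium. B lineage genes gave 3, erythroid genes 3 and osteoblast genes 2. Under that block 2.74% of all probe sets passed.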

How the data were processed

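Gene expression was measured on 9 Affymetrix Mouse Gene 1.0 ST arrays, 4 PBS and 5 G-CSF. The authors deposited 1 linear intensity per probe set and array, made with RMA in Expression Console per the submitters' processing notes; RMA corrects background, equalises the arrays and summarises probes. Software versions and genome build are not given in the sources used here. RNA had been amplified and labelled with kits, per the labels' protocols, which adds spread between arrays. RMA hides changes in total RNA, and differences near background understate true changes.

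The values ranged from 1.73 to 15673.09, a linear scale, and log2 was taken here. Of 35553 probe sets, the 21789 with 1 symbol were tested with limma 3.58.1 in R 4.3.3 (lmFit and eBayes, two-sided, no covariates); a probe set was called at a Benjamini-Hochberg adjusted p under 0.05. All 36 members matched the RefSeq gene table. All members were named, and from each pathway list the genes called (up to 4) or else the 2 with the smallest p; other names spell out a count and were chosen after their values were seen. The members, lists, array sets and tests were chosen with earlier results of these data known, and the motifs, the Gpr50 neighbours and the olfactory reference after the values were seen. Alternatives were other probe sets, variance models, normalisations, weights, blocks, thresholds and member minimums, and each array left out. The main limma fit was tested on simulated data with independent noise and no array sets, and the other steps were not simulated. The number of arrays limits the precision.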

Additional observations from a re-analysis of the deposited data

Results flagged for a closer look

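In 4 of 128 groups of arrays that were checked with Dixon's test, 1 array lay far from the others, where chance gives about 1 in 20. Gpr18 was at 7.72 on PBS replicate 3, against 7.08 on the next PBS array. Gpr161 was at 5.60 on PBS replicate 2, against 5.97 on the next. Gpr183 was at 6.02 on PBS replicate 1, against 5.44 on the next. Gnb4 was at 7.43 on G-CSF replicate 1, against 6.96 on the next.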

How the results depend on the processing

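Gpr50 kept its direction under every alternative run, and its call under all but these: testing all probe sets (-2.39, adjusted p = 0.0610), set 2 alone (-2.24, adjusted p = 0.231) and a threshold of 0.01 (-2.39, adjusted p = 0.0109). Without 1 array it lay between -2.63 and -2.00. The count of members called was 0 under those 3 settings and 2, with Gpr84 added, with array weights, with the array set as a block and without PBS replicate 3; without 1 array it was 1 to 2. Taking members at a mean of at least 4 or 6, or by the median, or by PBS alone left it at 1. The count of role groups with a call was 2 with the set block and 0 in set 2 alone, and 1 to 2 without 1 array. Pathway genes called were 10 with the set block and 1 in set 2 alone, and 2 to 3 without 1 array. Calls over all probe sets numbered 353, and 181 with all probe sets tested, 180 with the replicate block, 598 with the set block, 202 in set 1, 59 in set 2, 149 at a threshold of 0.01, and 210 (without PBS replicate 1) to 318 (without PBS replicate 3) with 1 array left out. Only some Gpr genes were followed singly through the alternatives, and among these some signs turned, without a call. Gpr108 turned with array weights (-0.032) and without PBS replicate 3 (range without 1 array -0.041 to 0.41). Gpr18 turned in set 2 (-0.10) and Gpr65 in set 1 (-0.28). Gpr4 turned in set 1 (0.12) and without PBS replicate 3 (range -0.19 to 0.041). Gpr152 turned with array weights (0.025), in set 1 (0.15) and without PBS replicate 3 (range -0.19 to 0.067). Gpr6 turned with array weights (0.081), in set 1 (0.12) and without PBS replicate 3 or 4 (range -0.18 to 0.068). Other members also turned without 1 array, among them Gpr157 (range -0.24 to 0.16), Gpr20 (-0.18 to 0.073) and Gpr107 (-0.18 to 0.051). Taking each set alone, signs turned for 13 of the 36 members: Gpr6, Gpr19, Gpr20, Gpr25, Gpr65, Gpr146 and Gpr173 in set 1, and Gpr18, Gpr107, Gpr132, Gpr135, Gpr137, Gpr139 and Gpr173 in set 2. The causes were not tested.

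Replicate numbers gave no clear pairing: deviations of same-numbered arrays correlated at 0.28, 0.14, -0.28 and 0.35. The array sets enter these values, as PBS replicate 3 is in set 2 and G-CSF replicate 3 in set 1. The check therefore cannot decide whether the arrays were paired. With the replicate block, in which G-CSF replicate 5 has no partner, Gpr50 was at -2.63 (adjusted p = 0.0106). G-CSF replicates 4 and 5 differed least of all pairs of arrays; averaged as 1 replicate, an alternative chosen after seeing the data, Gpr50 was at -2.52 (adjusted p = 0.0136).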
